A study of Mus musculus with 9 samples.

Results

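Interferon-stimulated genes were followed in cultured mouse synovial fibroblasts (SFs) as a list of 44 genes, taken by gene symbol from the 49548 genes of the expression tables. The list was put together from genes known to answer to interferon, with no threshold on their values. Earlier results of these data were known when it was chosen, and it was ordered by what the encoded proteins do. It holds 12 RNA-binding and RNA-degrading effectors, 10 dynamin-like, membrane and nucleotide effectors, 3 genes of the ISG15 system, 4 cytosolic RNA helicases, 4 transcription factors, 8 GTPases of the GBP and IRG families, and the 3 genes Parp9, Dtx3l and Parp14. RNA came from SFs of ankle joints of mice aged 8 weeks on a CBA C57BL/6J background. The 9 libraries fall into 3 from WT mice, 3 from hTNFtg mice, which carry a human TNF transgene and develop arthritis, and 3 from hTNFtg SFs that received infliximab, an antibody that neutralises TNF, at 1 µg/mL for 48 hours. For the other 6 libraries the labels state that nothing was added, where the methods name vehicle. All cultures had been depleted of CD45+ cells at passage 1, and the methods describe 3 biological replicates without saying whether each came from its own animal. No row of the tables is named for the human transgene, so its level is not analysed here.

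Interferons act through cell surface receptors and the kinases JAK1, JAK2 and TYK2. Type I interferon leads to a complex that holds STAT2 and IRF9 and binds the interferon-stimulated response element, and the response to interferon-gamma runs through the gamma-activated site. TNF acts mainly through NF-kB and is known to induce the transcription factor IRF1 and, in fibroblast-like synoviocytes, low amounts of interferon-beta. The genes that follow encode sensors of viral RNA, enzymes that degrade or trap it, and GTPases that attack the vacuoles of intracellular microbes.

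Promoter sequence was available for 33 of the 44 members, from RefSeq on GRCm38.p6 (the mm10 assembly), as 300 bases with 250 before and 50 after each annotated start. The core of the interferon-stimulated response element, GAAA and GAAA with any 2 bases between them, was searched on both strands and was present in 20 of these 33 members (60.6%), against 3.99% of the 27025 genes of the promoter table. The letters of the gamma-activated site, TTCNNNGAA, searched likewise, were present in 11 members (33.3%) against 9.55% of genes. Loose NF-kB letters, GGG and CC with any 5 bases between them, were present in 22 members (66.7%) against 53.5% of genes. Matches of different motifs can overlap, as the gamma-activated site and the NF-kB letters do in Bst2. A match is a run of letters and not a measured binding site. Below are the 150 bases before the start of members on which the results turn, with the response element letters in capitals. Gbp2, Ifit1, Rsad2 and Oas3 were raised in hTNFtg SFs, Isg15 and Irgm1 were raised in infliximab-treated hTNFtg SFs against WT, and Bst2 is among the members with the highest counts.
Gbp2, chr3:142620513-142620662, plus strand: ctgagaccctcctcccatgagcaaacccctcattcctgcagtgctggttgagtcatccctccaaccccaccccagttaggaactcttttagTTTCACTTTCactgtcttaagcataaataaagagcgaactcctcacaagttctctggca
Ifit1, chr19:34640739-34640888, plus strand: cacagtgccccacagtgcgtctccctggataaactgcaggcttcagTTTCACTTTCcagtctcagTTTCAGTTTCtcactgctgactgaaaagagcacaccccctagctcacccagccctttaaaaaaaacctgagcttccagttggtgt
Rsad2, chr12:26456453-26456602, minus strand: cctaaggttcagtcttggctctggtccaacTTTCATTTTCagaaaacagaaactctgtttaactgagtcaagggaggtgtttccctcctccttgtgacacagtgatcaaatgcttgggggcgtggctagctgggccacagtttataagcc
Oas3, chr5:120777660-120777809, minus strand: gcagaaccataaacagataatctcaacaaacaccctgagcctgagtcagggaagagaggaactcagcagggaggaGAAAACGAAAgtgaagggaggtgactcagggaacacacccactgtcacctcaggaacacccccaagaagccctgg
Isg15, chr4:156200819-156200968, minus strand: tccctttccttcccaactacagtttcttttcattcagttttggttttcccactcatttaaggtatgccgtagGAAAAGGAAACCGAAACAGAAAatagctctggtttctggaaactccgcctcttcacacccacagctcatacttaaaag
Irgm1, chr11:48871421-48871570, minus strand: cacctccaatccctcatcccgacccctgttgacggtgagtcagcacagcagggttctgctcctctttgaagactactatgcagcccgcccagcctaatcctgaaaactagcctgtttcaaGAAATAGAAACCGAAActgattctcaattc
Bst2, chr8:71537473-71537622, minus strand: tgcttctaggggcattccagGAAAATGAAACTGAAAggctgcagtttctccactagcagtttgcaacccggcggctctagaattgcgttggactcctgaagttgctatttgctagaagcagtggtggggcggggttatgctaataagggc

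The element lies at positions -59 to -50 from the start in Gbp2 and at -120 to -111 in Rsad2, in both on the opposite strand, so that it reads as TTTC repeats here. Ifit1 has a pair of matches, at -104 to -95 and at -85 to -76. Isg15 has 3 overlapping matches in a row between -78 and -57, so that the GAAA repeat continues without a gap. Next to these stand the window of Oasl2, the member with the smallest adjusted p in hTNFtg versus WT SFs, which holds none of the motifs in its 300 bases, and that of Irf1, which holds no response element letters but has the letters of a gamma-activated site at -90 to -82 and NF-kB letters, in capitals here, at -34 to -25 and -13 to -4.
Oasl2, chr5:114896784-114896933, plus strand: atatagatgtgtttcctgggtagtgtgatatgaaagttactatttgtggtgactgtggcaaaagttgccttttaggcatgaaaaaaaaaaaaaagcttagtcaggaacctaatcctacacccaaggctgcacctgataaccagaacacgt
Irf1, chr11:53769864-53770013, plus strand: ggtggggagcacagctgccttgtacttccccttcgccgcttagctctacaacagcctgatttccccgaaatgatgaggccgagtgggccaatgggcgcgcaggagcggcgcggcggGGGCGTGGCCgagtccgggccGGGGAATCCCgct

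**Figure D1:**
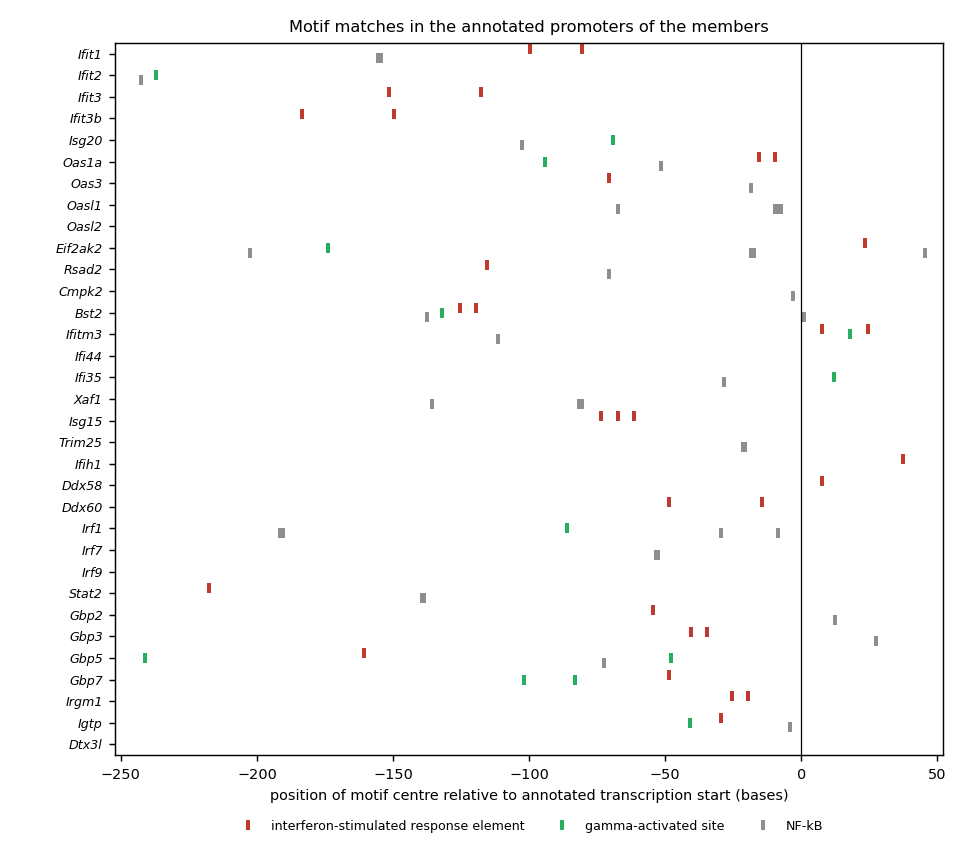
Each row is a member with a RefSeq promoter, and each tick is the centre of a motif match on either strand, in bases from the annotated transcription start (black line). Red ticks mark the interferon-stimulated response element, green ticks the gamma-activated site and grey ticks the NF-kB letters. Red ticks appear in 20 of the 33 rows.

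Depth limits what can be said of many members. Dividing the deposited normalized counts by the estimated worth of a read gave 3829065 to 9016375 reads in 8 libraries and 613343 in hTNFtg replicate 1. A read was therefore worth 6.23 normalized counts in that library and 0.534 to 1.1 in the others, and a gene was taken to be at the floor in a group when no library had more than 3 reads, which covers counting error only. The 10 fibroblast markers summed to 42009 to 52743 normalized counts in WT, 38175 to 46051 in hTNFtg and 35893 to 41849 in infliximab-treated SFs, so that the sums with infliximab lay below those of WT. Pdpn was raised and Lum lowered in both hTNFtg groups versus WT, and the other 8 were not called. The 15 macrophage markers summed to 219 to 819 in WT, 3543 to 8051 in hTNFtg and 2380 to 5085 in infliximab-treated SFs. None of the 15 was at 0 throughout WT SFs. Of them, 12 were raised in hTNFtg versus WT SFs, 13 were raised in infliximab-treated versus WT SFs (median log2 fold changes 3.28 and 2.83) and 2 were lowered by infliximab, where 3.35%, 3.86% and 0.936% of all genes were. Lyz2 stood at 43, 277 and 95 in WT replicates 1, 2 and 3 against 5356, 2284 and 2356 in hTNFtg. Of 9 dendritic cell markers, 3 were higher and 5 lower in hTNFtg versus WT SFs (median log2 fold change -0.11), and Itgax and Xcr1 were raised in both hTNFtg groups versus WT. Endothelial markers summed to 2 to 12 and those of T, NK and B cells to 5 to 34. Ptprc (CD45), on that last list, had 0, 3 and 0 in WT, 31, 9 and 12 in hTNFtg and 28, 8 and 22 with infliximab, and was raised in both hTNFtg groups, at least 6.86-fold (4.16-fold without hTNFtg replicate 1) and at least 7.66-fold over the WT floor. In bulk RNA, fewer cells of a type and less RNA per cell cannot be told apart, and the part of macrophage RNA in the results that follow was not tested.

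The members ranged from absent to abundant. Ifitm3 had the highest mean over the 9 libraries (1241 normalized counts), followed by Bst2 (371) and Irf1 (337). In 3′ sequencing the reads of a transcript do not grow with its length, so these counts were not divided by length. Of the 44 members, 32 were above 0 in every library, 29 had a mean of at least 10 and 9 a mean of at least 100. Oasl1 was at 0 in all 9 libraries, and Mx1 was at the floor in every group, with its only value, 1, in hTNFtg replicate 3. The floor held 8 members in WT, 2 in hTNFtg and 5 in infliximab-treated SFs. In the shallow hTNFtg replicate 1, 8 members were at 0 and a further 8 rested on 1 or 2 reads. Among the 29 members with a mean of at least 10, the highest group mean was in hTNFtg SFs for 18, in infliximab-treated SFs for 9 and in WT SFs for Ifit3b and Dhx58. Over all genes of that level these shares were 37.2%, 26.3% and 35.5%, against 62.1%, 31% and 6.9% of the members.

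**Figure D2:**
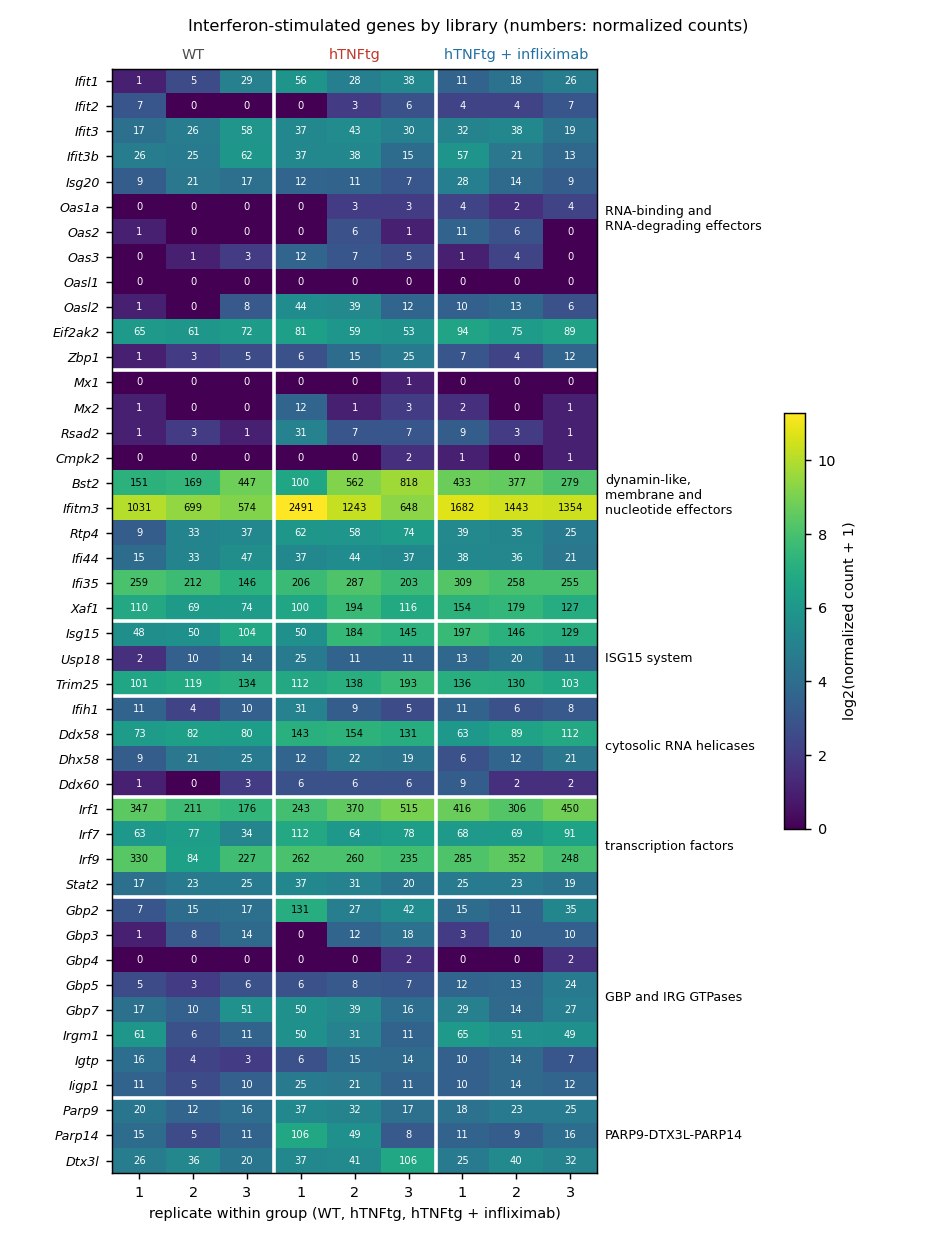
Rows are the 44 members, grouped by role, and columns the 9 libraries. Colour gives log2(normalized count + 1) and the printed number is the normalized count. The rows of Ifitm3, Bst2 and Irf1 are the brightest on average, and Oasl1 is at 0 throughout.

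The comparison of hTNFtg with WT SFs asks how the members stand under chronic TNF. Nearly the whole list was higher in hTNFtg SFs: 39 of the 43 members tested had a log2 fold change above 0 and 4 were below, where 47.2% of all 28522 genes tested were above 0. Oas1a, Mx1, Cmpk2 and Gbp4 were at 0 in all WT libraries and could only come out higher. Of members with a mean of at least 10 over the 6 libraries, 26 of 29 were higher, where 45.1% of such genes were. The median log2 fold change of the 43 members was 0.66, or 0.61 with members at the floor set to their bounds, against -0.0034 over all genes. By the rule of the study (unadjusted P below 0.05 with at least a doubling or halving), 8 members were raised, namely Ifit1, Oas3, Oasl2, Zbp1, Mx2, Rsad2, Rtp4 and Gbp2. Over all genes 3.35% were raised. Of the 29 members with a mean of at least 10, 4 were raised, Ifit1, Oasl2, Rtp4 and Gbp2, where 4.96% of such genes were. In all that follows, a gene is called where it passed this rule in the limma fit of the 6 libraries compared, unless another tool is named. The rule lowered 0 members, against 3.04% of all genes. In 9 members every hTNFtg library was above every WT library, where 5.63% of all genes were, and 0 members lay wholly below, where 5.8% of all genes did. None passed adjustment over all genes: limma gave 0 members and 0.48% of all genes an adjusted p below 0.05, the smallest among members being 0.216 (Oasl2). At an unadjusted P below 0.05 there were 9 members, all higher, against 4.02% of genes, and edgeR on approximate reads gave 3 past adjustment (Oasl2, Gbp2 and Parp14), where it gave 3.22% of all genes. Leaving out WT replicate 1 left 1 raised member, Oasl2, where 2.65% of all genes were raised, and leaving out WT replicate 2 left 4, where 2.47% were, while without hTNFtg replicate 1 there were 9, of which 5 were among the 8 and where 5.35% of all genes were raised. These higher values stand beside the higher macrophage marker sums of hTNFtg SFs, and that relation was not tested.

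Against untreated hTNFtg SFs, infliximab-treated SFs had lower values for more members than higher ones. Of 43 members tested, 15 were higher, 27 lower and Gbp4 was equal, and the median log2 fold change was -0.24, or -0.14 with floor members at their bounds, against 0 over all 28540 genes, of which 51.1% were above 0. Mx1, at 0 in all infliximab libraries, could only come out lower. Of members with a mean of at least 10, 10 were higher and 22 lower, where 52.7% of such genes were above 0. Ifit1, Oasl2 and Gbp2 were lowered by the rule, 3 members where 0.936% of all genes were lowered. The rule raised 0 members, against 1.49% of all genes. Every infliximab library lay below every untreated library for 4 members, Oas3, Ifit1, Rtp4 and Ddx58, where 3.44% of genes did, and above for 1, Gbp5, where 3.99% of genes did. The 5 members at an unadjusted P below 0.05 were all lower, against 1.44% of genes. With Benjamini-Hochberg adjustment limma called 0 members and 0% of all genes, the smallest adjusted p among members being 0.803, and edgeR called 0 members and 0.578% of genes. The calls of all 3 lowered members were lost without hTNFtg replicate 1, the shallow library with the highest macrophage marker sum, and equally without infliximab replicate 1 or 2. Without hTNFtg replicate 1 the rule lowered 0 members, against 3.29% of all genes, and raised Irgm1, against 1.70%, while the log2 fold changes were -0.88 for Ifit1, -1.15 for Oasl2 and -0.87 for Gbp2. Without infliximab replicate 1 it lowered Rtp4 alone (0.444% of genes), and without infliximab replicate 2 it lowered Oas3 and Rtp4 (0.431% of genes). Beside these lower values, 13 of the 15 macrophage markers were lower and 2 higher (median log2 fold change -0.31). Their sums overlapped (2380 to 5085 against 3543 to 8051 in untreated hTNFtg SFs), and the relation was not tested.

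Infliximab-treated hTNFtg SFs still stood above WT SFs for most of the list. Of 42 members tested, 39 were higher and 3 lower, with a median log2 fold change of 0.53, or 0.45 with floor members at their bounds, against 0 over all 28243 genes, of which 48.9% were above 0. Oas1a, Cmpk2 and Gbp4 were at 0 in all WT libraries and could only come out higher. Of members with a mean of at least 10, 25 of 28 were higher, where 48.6% of such genes were. The rule raised 5 members, Oas1a, Oasl2, Isg15, Gbp5 and Irgm1, where 3.86% of genes were raised, and lowered 0, where 2.95% were lowered. In 6 members every infliximab library exceeded every WT library, against 7.14% of genes, and in 0 members the reverse held, against 7.07% of genes. An unadjusted P below 0.05 was reached by 8 members, all higher, against 6.23% of genes. limma's adjusted p was below 0.05 for 0 members and 0.74% of genes, with 0.102 as the smallest among members, and edgeR called Ifitm3, Xaf1 and Isg15 and 4.67% of genes. The count of raised members was 8 without WT replicate 1, where 4.93% of all genes were raised. It was 3 without WT replicate 2 (3.46% of genes) and 3 without infliximab replicate 1 (3.93% of genes). These higher values, too, stand beside higher macrophage marker sums (2380 to 5085 against 219 to 819 in WT), a relation that was not tested. These 3 comparisons share libraries in pairs, so their fold changes are set side by side and are not independent of each other.

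**Figure D3:**
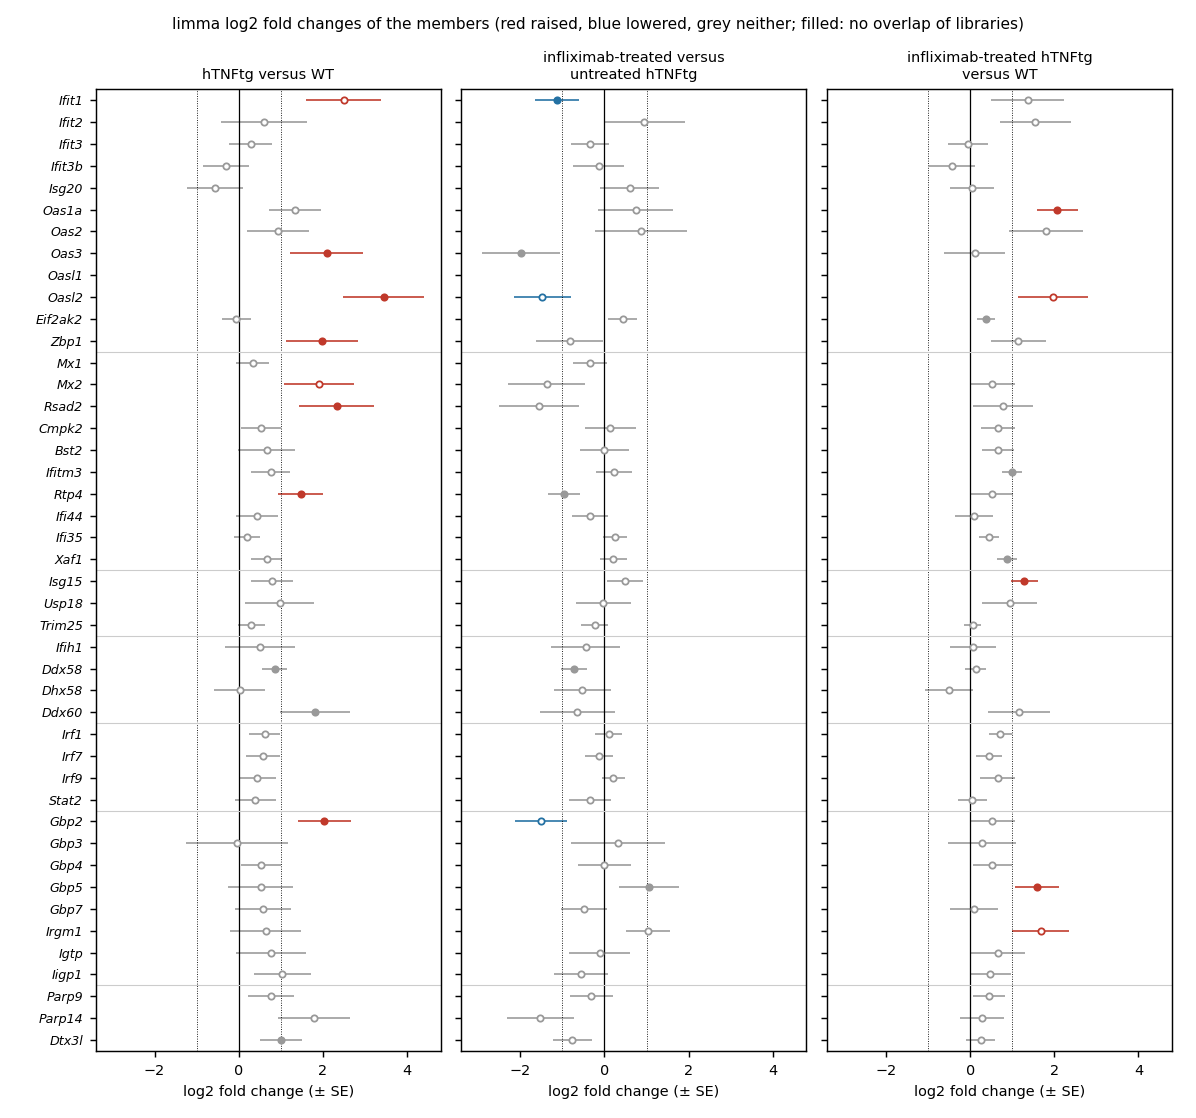
Points are limma log2 fold changes of each member with standard errors, on the log2(normalized count + 1) scale, for the 3 comparisons. Red marks raised and blue lowered members by the rule, and filled points mark members whose libraries do not overlap between the groups. In hTNFtg versus WT, 39 points lie to the right of 0, and in the infliximab comparison 27 lie to the left.

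Among the RNA-binding and RNA-degrading effectors, Oasl2, Ifit1, Oas3 and Zbp1 were raised in hTNFtg SFs, of which Oasl2 and Ifit1 were lowered under infliximab, while Oas1a was raised in infliximab-treated versus WT SFs. Oasl2, an oligoadenylate synthetase-like protein encoded at chr5:114896936-114912234, had normalized counts of 1, 0 and 8 in WT, 44, 39 and 12 in hTNFtg and 10, 13 and 6 in infliximab-treated SFs, listed here and below for replicates 1, 2 and 3. All hTNFtg values exceeded all WT values, and the infliximab values overlapped both groups. Its log2 fold change was 3.45 (SE 0.97, adjusted p = 0.216) in hTNFtg versus WT, -1.48 (SE 0.67, adjusted p = 0.803) under infliximab, and 1.97 (SE 0.82, adjusted p = 0.381) for infliximab-treated versus WT. Its call in hTNFtg held with each library left out in turn, at log2 fold changes of 2.75 to 4.34. Its other calls were kept in 1 of 6 such fits each.

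Ifit1, which binds RNA that lacks cap methylation and is encoded at chr19:34640871-34650009, stood at 1, 5 and 29 in WT SFs. It was at 56, 28 and 38 in hTNFtg and at 11, 18 and 26 with infliximab. WT replicate 3 reached the range of hTNFtg SFs, whereas all infliximab values lay below all untreated ones. The log2 fold change was 2.49 (SE 0.89, adjusted p = 0.41) in hTNFtg versus WT and -1.13 (SE 0.52, adjusted p = 0.803) under infliximab. The value of 56 in hTNFtg replicate 1 rests on 9 reads. Without that library the log2 fold changes were 2.24 and -0.88 and neither passed the rule. Over all libraries left out in turn, the value in hTNFtg versus WT ran from 1.58 (without WT replicate 1) to 3.53 (without WT replicate 3). The first call was also lost without WT replicate 1 or 2, the second without hTNFtg replicate 3 or infliximab replicate 1 or 2, and both with a replicate block.

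Oas3, an enzyme that makes the oligoadenylates which activate RNase L, was low throughout: 0, 1 and 3 in WT, 12, 7 and 5 in hTNFtg and 1, 4 and 0 with infliximab. Values of hTNFtg SFs lay above all others, although the highest of them is 2 reads. Its log2 fold changes were 2.10 (SE 0.87, adjusted p = 0.565) in hTNFtg and -1.99 (SE 0.93, adjusted p = 0.803) under infliximab, the latter short of the rule. Zbp1, a sensor of Z-form nucleic acid that can trigger necroptosis, had 1, 3 and 5 in WT. It had 6, 15 and 25 in hTNFtg SFs, with 1.97 as its log2 fold change (SE 0.86, adjusted p = 0.607). The 6, in hTNFtg replicate 1, is 1 read. With infliximab Zbp1 stood at 7, 4 and 12 and overlapped both groups. With a library left out in turn, the call in hTNFtg was kept in 3 of 6 fits for Oas3 and in 2 of 6 for Zbp1. A replicate block removed the call of Oas3 in hTNFtg and lowered Oas3 by the rule under infliximab.

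Oas1a, another oligoadenylate synthetase, was at 0 in every WT library. It had 0, 3 and 3 in hTNFtg and 4, 2 and 4 with infliximab, at least 1.32-fold higher than the WT floor and raised by the rule (adjusted p = 0.102), a call kept with each library left out. Eif2ak2 (PKR, a kinase that halts translation) ranged from 53 to 94 over all libraries and was higher in all infliximab-treated libraries (94, 75 and 89) than in WT (65, 61 and 72), a log2 fold change of 0.37 (SE 0.21, adjusted p = 0.528). The near-identical copies Ifit3 and Ifit3b, among which reads could be split, had 13 to 62, with log2 fold changes in hTNFtg of 0.28 and -0.30. The exonuclease Isg20 (7 to 28), Ifit2 (0 to 7) and Oas2 (0 to 11) were not called by limma in any comparison, though Oas2 was raised in hTNFtg versus WT with sample weights. In infliximab-treated versus WT, Ifit2 and Oas2 were raised with weights and with the robust fit, and Oas2 with edgeR.

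**Figure D4:**
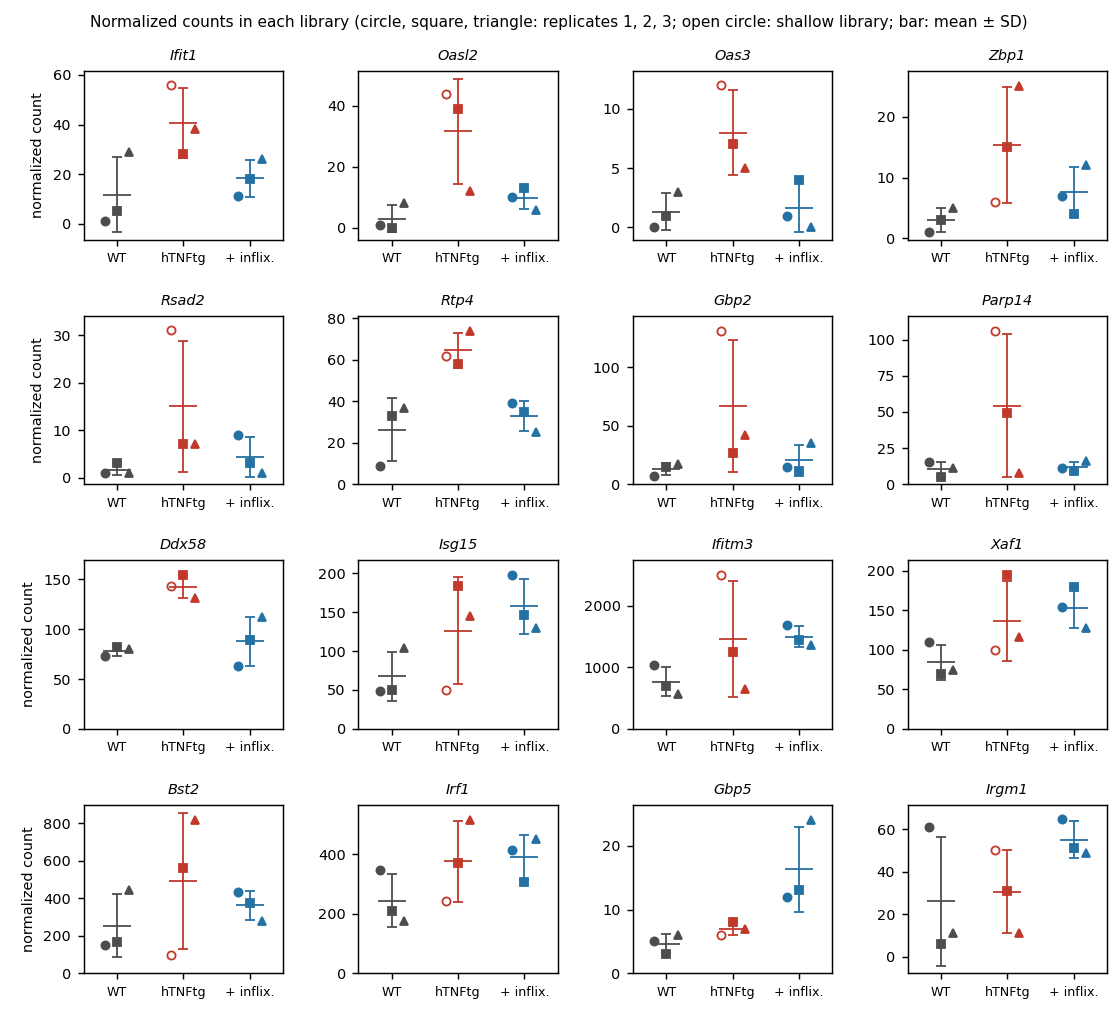
Normalized counts of 16 members in each library, with circles, squares and triangles for replicates 1, 2 and 3, an open circle for the shallow hTNFtg replicate 1, and bars for the group mean ± SD (n = 3). For Oasl2, Oas3, Rtp4, Gbp2 and Ddx58 all hTNFtg points lie above all WT points. In Bst2 the hTNFtg points spread over the range of both other groups, and in Ifitm3 and Irf1 they overlap both.

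The dynamin-like, membrane and nucleotide effectors all had positive fold changes in hTNFtg versus WT SFs, 10 of 10 where 47.2% of all genes did. Mx1 and Cmpk2 were at 0 in all WT libraries and could not come out lower. The 6 with a mean of at least 10 were all higher, where 45.1% of such genes were. By the rule, 3 of the 10, Rtp4, Rsad2 and Mx2, were raised, against 3.35% of genes. None of the 10 was called under infliximab, where 0.936% of genes were lowered and 1.49% raised, though Rsad2 was lowered there with a replicate block. Rtp4, a chaperone of receptor transport that also acts against viruses, had 9, 33 and 37 in WT, 62, 58 and 74 in hTNFtg and 39, 35 and 25 with infliximab. Libraries of hTNFtg SFs stood apart from both other groups, which overlapped each other. The log2 fold change was 1.48 (SE 0.53, adjusted p = 0.427) in hTNFtg versus WT and -0.97 (SE 0.38, adjusted p = 0.803) under infliximab. Its call was lost without WT replicate 1, hTNFtg replicate 1 or hTNFtg replicate 3. Rtp4 overlaps the gene Gm45338, and the sources used here do not say whether counting used strand.

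Rsad2 (viperin, which makes a chain-terminating nucleotide) was at the floor in WT with 1, 3 and 1. It had 31, 7 and 7 in hTNFtg, so that it was at least 5.94-fold higher (adjusted p = 0.493), and 9, 3 and 1 with infliximab. No hTNFtg value overlapped WT. The value of 31 is 5 reads, and without that library the gene was at least 2.77-fold higher. Its call was lost without WT replicate 1 or 3. Mx2, a dynamin-like GTPase annotated as a polymorphic pseudogene in these tables, had 1, 0 and 0 in WT and 12, 1 and 3 in hTNFtg, at least 2.11-fold higher (adjusted p = 0.608). The 12 is 2 reads, and without that library the mean of hTNFtg SFs was 2, below the WT floor, so that no bound above WT remained. With infliximab it had 2, 0 and 1, so that all groups overlapped. Its call was kept in 1 of 6 fits with a library left out. Cmpk2, the nucleotide kinase encoded beside Rsad2, had at most 2 counts in any library.

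Ifitm3, a membrane protein that blocks fusion of virus and endosome, carried 17.4% to 51.8% of the summed counts of all members. Its counts were 1031, 699 and 574 in WT, 2491, 1243 and 648 in hTNFtg and 1682, 1443 and 1354 with infliximab. Libraries of hTNFtg SFs spread from within the WT range to the highest value of the series, whereas the infliximab libraries stood close together above all WT libraries. The log2 fold change was 0.76 (SE 0.46, adjusted p = 0.726) in hTNFtg and 1.00 (SE 0.23, adjusted p = 0.102) for infliximab-treated versus WT, just short of the doubling that the rule asks for. The value in hTNFtg versus WT was 0.27 without hTNFtg replicate 1 and 1.24, which passed the rule, without hTNFtg replicate 3. Xaf1, which promotes apoptosis, had 110, 69 and 74 in WT, 100, 194 and 116 in hTNFtg and 154, 179 and 127 with infliximab. Its infliximab libraries also lay above all WT libraries, with a log2 fold change of 0.87 (SE 0.24, adjusted p = 0.169). In hTNFtg versus WT the value for Xaf1 was 0.66 (SE 0.36, adjusted p = 0.726), or 1.15 with sample weights (adjusted p = 0.0408).

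Bst2 (tetherin, which holds budding virus at the cell surface) varied widely within groups, with 100, 562 and 818 in hTNFtg against 151, 169 and 447 in WT and 433, 377 and 279 with infliximab. Values of hTNFtg SFs covered those of both other groups. The log2 fold change was 0.67 (SE 0.68, adjusted p = 0.726) in hTNFtg versus WT and 0.66 (SE 0.38, adjusted p = 0.528) for infliximab-treated versus WT. Without hTNFtg replicate 1 the first became 1.59 and passed the rule, and without hTNFtg replicate 3 it was 0.076. Ifi35 ranged from 146 to 309 and Ifi44 from 15 to 47, and neither was called in any comparison.

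In the ISG15 system, Isg15 itself was raised in infliximab-treated versus WT SFs, and the other 2 genes were not called. Isg15, a ubiquitin-like protein that is joined to other proteins and encoded at chr4:156199424-156200818, had 48, 50 and 104 in WT, 50, 184 and 145 in hTNFtg and 197, 146 and 129 with infliximab. All infliximab values exceeded all WT values, while hTNFtg replicate 1, where 50 counts are 8 reads, stayed in the WT range. Its log2 fold change was 0.80 (SE 0.50, adjusted p = 0.726) in hTNFtg versus WT, 0.49 (SE 0.43, adjusted p = 0.803) under infliximab and 1.28 (SE 0.32, adjusted p = 0.122) for infliximab-treated versus WT. The last call was kept with each library left out, and edgeR gave it an adjusted p of 0.00058. Without hTNFtg replicate 1 its fold change under infliximab turned to -0.077, and that in hTNFtg versus WT became 1.36 and passed the rule. Without hTNFtg replicate 2 the value in hTNFtg versus WT was 0.43. Usp18, the protease that removes ISG15 and dampens the type I receptor, ranged from 2 to 25, and Trim25, a ligase that acts on RIG-I, from 101 to 193.

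The cytosolic RNA helicases were led by Ddx58 (RIG-I, a sensor of viral RNA ends), encoded at chr4:40203773-40239828. It had 73, 82 and 80 in WT, 143, 154 and 131 in hTNFtg and 63, 89 and 112 with infliximab. All hTNFtg libraries, the shallow one included, stood above all libraries of both other groups. The spread was narrow, 78.3 ± 4.73 (SD, n = 3) in WT and 143 ± 11.5 (SD, n = 3) in hTNFtg, and the log2 fold change of 0.86 (SE 0.29, adjusted p = 0.38) moved between 0.80 and 0.91 as libraries were left out. Under infliximab it was -0.73 (SE 0.32, adjusted p = 0.803), and against WT 0.13 (SE 0.25, adjusted p = 0.813) remained. As the change is below a doubling, the rule called Ddx58 in no comparison. Ddx60, a helicase linked to RIG-I signalling, had 6 in each hTNFtg library against 1, 0 and 3 in WT. Its hTNFtg values rest on about 1, 7 and 11 reads, so their equality is not a measured agreement. The log2 fold change of Ddx60 was 1.81 (SE 0.83, adjusted p = 0.657), short of the rule. It passed with quantile normalization, sample weights or all 9 libraries in one fit, and without WT replicate 3 or hTNFtg replicate 1. The sensor Ifih1 (MDA5) had 4 to 31, and Dhx58 (LGP2), which overlaps an antisense gene, 6 to 25. All 4 helicases had a negative fold change under infliximab, where 51.1% of all genes were above 0. None was called, where 0.936% of all genes were lowered and 1.49% raised.

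The transcription factors were not called by limma in any comparison. All 4 had small positive log2 fold changes in hTNFtg versus WT SFs, between 0.39 and 0.61, where 47.2% of all genes were above 0. Irf1, encoded at chr11:53770014-53778374, had 347, 211 and 176 in WT, 243, 370 and 515 in hTNFtg and 416, 306 and 450 with infliximab. WT and hTNFtg libraries overlapped, and so did WT and infliximab libraries. Its log2 fold change was 0.61 (SE 0.37, adjusted p = 0.726) in hTNFtg versus WT, 0.10 (SE 0.32, adjusted p = 0.951) under infliximab and 0.71 (SE 0.27, adjusted p = 0.314) for infliximab-treated versus WT. Irf9 and Stat2, which encode subunits of the complex that binds the response element, ranged from 84 to 352 and from 17 to 37, and with sample weights Irf9 was raised in infliximab-treated versus WT SFs. Irf7, which drives interferon-alpha genes, ranged from 34 to 112. Reads of Irf7 and Irf9 could be shared with the overlapping genes Phrf1 and Rnf31.

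Of the GBP and IRG GTPases, Gbp2 was raised in hTNFtg versus WT and lowered under infliximab, whereas Gbp5 and Irgm1 were raised in infliximab-treated versus WT SFs. GBP and IRG proteins coat the vacuoles of intracellular microbes. Gbp2, at chr3:142620602-142638008, had 7, 15 and 17 in WT, 131, 27 and 42 in hTNFtg and 15, 11 and 35 with infliximab. All hTNFtg values exceeded WT, and hTNFtg replicate 1, with 21 reads, was far above its replicates. The log2 fold change was 2.04 (SE 0.64, adjusted p = 0.294) in hTNFtg, with 1.39 when that library was left out, and -1.51 (SE 0.62, adjusted p = 0.803) under infliximab, with -0.87 and no call when it was left out. In hTNFtg the call was lost without WT replicate 1 and with a replicate block, and edgeR gave an adjusted p of 0.00633. Under infliximab it was also lost without infliximab replicate 1 or 2 and with the block.

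Gbp5, which also promotes inflammasome assembly, had 5, 3 and 6 in WT, 6, 8 and 7 in hTNFtg and 12, 13 and 24 with infliximab. Libraries with the antibody lay above all others, and the WT and hTNFtg libraries touched at 6. The log2 fold change was 1.59 (SE 0.52, adjusted p = 0.245) for infliximab-treated versus WT and 1.06 (SE 0.71, adjusted p = 0.803) against untreated hTNFtg, and the first call was kept with each library left out. Irgm1, a regulator of the IRG family, had 61, 6 and 11 in WT, 50, 31 and 11 in hTNFtg and 65, 51 and 49 with infliximab. WT replicate 1 lay among the infliximab libraries. Its log2 fold change of 1.68 (SE 0.67, adjusted p = 0.356) for infliximab-treated versus WT kept its call in 1 of 6 fits, that without WT replicate 1. Igtp, Iigp1, Gbp3 and Gbp7 ranged from 0 to 51 and were not called by limma, though Iigp1 was raised in hTNFtg versus WT with sample weights, and Gbp4 had at most 2 counts.

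Parp9, Dtx3l and Parp14 encode partners in ADP-ribosylation and ubiquitination that modify interferon signalling. All 3 had positive fold changes in hTNFtg versus WT SFs, where 47.2% of all genes did. All 3 were negative under infliximab, where 51.1% of all genes were above 0. The main limma fit called none by the rule, where 3.35% of all genes were raised in hTNFtg and 0.936% lowered under infliximab. In hTNFtg versus WT, edgeR raised Parp14 (adjusted p = 0.0124) and Dtx3l, where 5.36% of all genes were raised. With sample weights limma raised Parp9 and Parp14, where 7.78% were raised. Parp14 was also raised with the robust fit (3.54% of all genes) and, together with Dtx3l, in the fit of all 9 libraries (4.13%). Under infliximab, Parp14 was lowered by edgeR (adjusted p = 0.127) and by limma with weights or the robust fit. Parp14 had 15, 5 and 11 in WT, 106, 49 and 8 in hTNFtg and 11, 9 and 16 with infliximab. Replicates 1 and 2 of hTNFtg stood far above the rest and replicate 3 lay in the WT range, with log2 fold changes of 1.80 (SE 0.85, adjusted p = 0.677) and -1.52 (SE 0.79, adjusted p = 0.803), or 1.02 and -0.74 without replicate 1. Dtx3l had 26, 36 and 20 in WT and 37, 41 and 106 in hTNFtg, without overlap, a log2 fold change of 1.01 (SE 0.50, adjusted p = 0.695). Its highest library was replicate 3, where Parp14 was lowest. Dtx3l and Parp9 overlap at their starts on opposite strands.

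Summed over each role, the normalized counts followed different paths over the groups. For the RNA-binding and RNA-degrading effectors, the ISG15 system and the transcription factors, the libraries overlapped in every comparison. The 3 genes Parp9, Dtx3l and Parp14 summed to 61, 53 and 47 in WT, 180, 122 and 131 in hTNFtg and 54, 72 and 73 with infliximab. Helicase genes summed to 94, 107 and 118, then 192, 191 and 161, then 89, 109 and 143. In these 2 roles the hTNFtg libraries stood above both other groups, which overlapped each other. Among the helicases this separation came from Ddx58, and with it taken off the sums of the others overlapped between all groups. The membrane and nucleotide effectors summed to 1218 to 1577 in WT, 1909 to 3039 in hTNFtg and 2064 to 2667 with infliximab. Both hTNFtg groups stood above WT and overlapped each other. Ifitm3 alone gave 574 to 1031 of this in WT, 648 to 2491 in hTNFtg and 1354 to 1682 with infliximab. With Ifitm3 taken off, both hTNFtg groups overlapped WT. GBP and IRG GTPases summed to 51 to 118, 121 to 268 and 127 to 166, so both hTNFtg groups stood above WT. With Gbp2 taken off, the untreated hTNFtg libraries overlapped WT there. Without Ifitm3, all members together came to 1446 to 1997 in WT, 2314 to 3066 in hTNFtg and 2328 to 2671 with infliximab, which is 1.57 times WT in hTNFtg and 1.40 times WT with infliximab. The sums are levels over members chosen by name and were not tested.

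**Figure D5:**
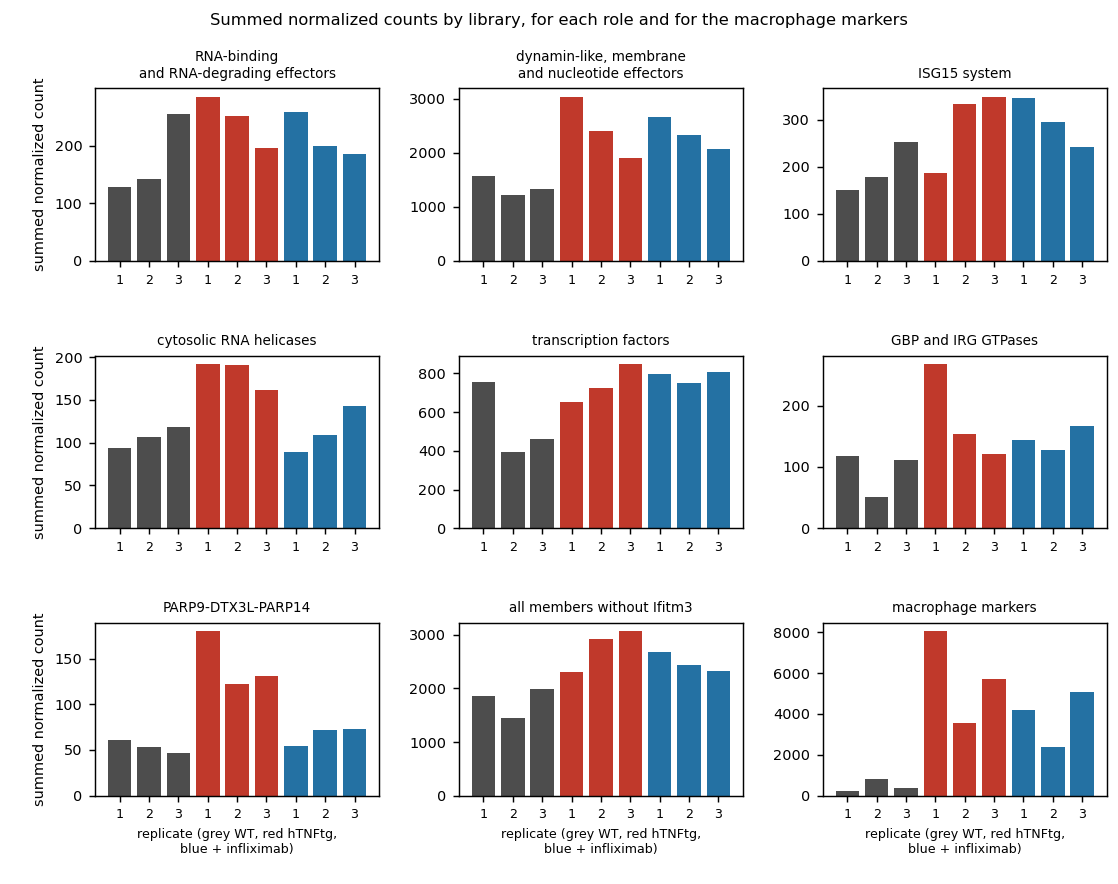
Bars are summed normalized counts in each library (grey WT, red hTNFtg, blue infliximab-treated) for the 7 roles, for all members without Ifitm3 and for 15 macrophage markers. Helicases and the Parp9, Dtx3l and Parp14 trio are highest in the red bars. The macrophage marker sum is highest in hTNFtg replicate 1 (8051).

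The interferons themselves were almost absent. Of 15 ligand genes, 11 were at 0 in all 9 libraries, Ifnb1 (interferon-beta) among them, and the ligands summed to at most 7 counts in any library. Of 15 receptors, kinases, STATs and feedback regulators, 2 were raised in hTNFtg SFs and 0 lowered, against 3.35% and 3.04% of all genes. Ifngr2, a chain of the interferon-gamma receptor, had 54, 41 and 55 in WT, 268, 141 and 146 in hTNFtg and 140, 116 and 72 with infliximab. No library of either hTNFtg group overlapped WT, and the log2 fold change was 1.81 (SE 0.35, adjusted p = 0.056) in hTNFtg and 1.07 (SE 0.29, adjusted p = 0.149) with infliximab. Ptpn6, a phosphatase of blood cells that restrains JAK signalling, was at the WT floor and at least 14.9-fold higher in hTNFtg SFs (adjusted p = 0.0813), or at least 7.52-fold without hTNFtg replicate 1. The other receptor chains Ifnar1, Ifnar2 and Ifngr1 had log2 fold changes of 0.17, 0.71 and 0.59 in hTNFtg and were not called.

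Socs1, a feedback inhibitor of JAK kinases, was raised under infliximab, at 38, 53 and 43 against 19, 22 and 6 in untreated hTNFtg SFs, a log2 fold change of 1.62 (SE 0.56, adjusted p = 0.803). WT SFs had 98, 17 and 27 and overlapped both.

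Of 15 genes that lead to interferon production, 4 were raised in hTNFtg and 3 in infliximab-treated versus WT SFs, where 3.35% and 3.86% of all genes were, and 0 were lowered in either, where 3.04% and 2.95% of all genes were. Tmem173 (STING, the adaptor of cytosolic DNA sensing) had 168, 105 and 101 in WT, 230, 258 and 291 in hTNFtg and 337, 290 and 222 with infliximab. Both hTNFtg groups lay above WT, with log2 fold changes of 1.09 (SE 0.31, adjusted p = 0.222) and 1.20 (SE 0.25, adjusted p = 0.0756). Traf3, an adaptor of interferon induction, had 104, 111 and 100 in WT, 293, 251 and 285 in hTNFtg and 161, 132 and 140 with infliximab, in an order without overlap, and its log2 fold change in hTNFtg was 1.39 (SE 0.28, adjusted p = 0.0605). Irf8, a factor of myeloid cells, had a log2 fold change of 3.16 (SE 0.93, adjusted p = 0.254) in hTNFtg SFs.

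Of 58 further interferon-stimulated genes tested, 13 were raised in hTNFtg SFs and 0 lowered, where 3.35% and 3.04% of all genes were. Their median log2 fold change was 0.46, against -0.0034 over all genes. Slfn2, which restrains cell growth, had 0, 4 and 3 in WT, 44, 55 and 70 in hTNFtg and 44, 26 and 13 with infliximab. It was the 1 gene of that list past the adjusted threshold, with a log2 fold change of 4.38 (SE 0.77, adjusted p = 0.034). Under infliximab it fell by 1.13 on the log2 scale (adjusted p = 0.803), and Ifi47, an IRG GTPase, fell by 1.89 (SE 0.62, adjusted p = 0.803) from 37, 34 and 23 to 12, 5 and 7. Helz2 completed the 3 lowered genes, against 0.936% of all genes, and 0 of the list were raised, against 1.49%. For infliximab-treated versus WT SFs, 9 of 57 were raised where 3.86% of all genes were, among them Slfn2 (3.24), Sp100 (2.91), Pml (1.28) and Slfn5 (1.06), on the log2 scale.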

How the data were processed

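3′ mRNA libraries (QuantSeq, Ion Proton) of 9 SF cultures were analysed. The authors mapped reads to mm10 with TopHat2 and Bowtie2, counted them over genes, normalized the counts and tested with DESeq. Versions are not given in the sources used here. The deposited values are normalized counts rounded to whole numbers, treated as a score in 8 libraries. In hTNFtg replicate 1, where a read is worth several counts, they are a signal of the authors' whole reads divided by a size factor. Reads were recovered for all 9 libraries, only approximately in the 8, where rounding hides the steps. Columns of the authors' own fold changes and p-values, and 24 other per-sample columns, were not used. The strand setting of the counting is not given. Because no raw counts were used, limma 3.58.1 (R 4.3.3) was fitted for each comparison to log2(normalized count + 1) of its 6 libraries, over all genes above 0 in any of them, with Benjamini-Hochberg adjustment. Members were called raised or lowered by the threshold of the study, an unadjusted P below 0.05 and an absolute log2 fold change of at least 1. edgeR 4.0.16 on approximate reads, other pseudocounts (0.5 and 5), a mean minimum of 10, other scalings, sample weights, a robust fit, a fit of all 9 libraries, a replicate block and leaving out each library were alternatives. On simulated data for hTNFtg versus WT (24616 genes, 200 changed 4-fold) limma found 99% by the study's threshold with 380 unchanged genes called, and 57.5% by adjusted p with 0. The worth of a read was estimated from the steps between low values and came out within 1% in 19 of 20 simulated libraries, the miss being a worth of 1, which rounding hides (the nearest real library had 0.968). The p-values measure the spread between cultures, whose animals are not stated. Members and lists were chosen with earlier results of these data known. All 44 members are accounted for. Values in every library are given for members called in any comparison, the 5 with the largest fold changes per comparison among those with a mean of at least 10 over its libraries, and the 3 with the highest means, 16 members in all. Members whose libraries did not overlap were added after their values were seen. Pathway genes named are those called with a mean of at least 10, at most 4 per list and comparison, with Ifnb1 and the receptor chains. A result on 1 further gene is not reported here.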

Additional observations from a re-analysis of the deposited data

How the results depend on the processing

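The median log2 fold change of the members kept its sign in each comparison under the 10 other settings and with each library left out, at 0.489 to 0.912 and 0.537 to 0.862 in hTNFtg versus WT, -0.411 to -0.123 and -0.265 to -0.114 under infliximab, and 0.4 to 0.602 and 0.5 to 0.607 for infliximab-treated versus WT. Counts of calls moved more, and the cause was not tested. In hTNFtg versus WT, raised members numbered 4 with a mean minimum of 10 (4.83% of genes tested) and 16 with sample weights (where 7.78% of all genes were raised, against 3.35%). They numbered 1 to 9 with a library left out (2.47% to 5.35% of all genes). Members past the adjusted threshold were 6 with weights (3.52% of all genes), 1 with the robust fit (1.62%) and 3 with edgeR (3.22%). Those with weights were Oas1a, Oasl2, Xaf1, Isg15, Ddx58 and Parp14. Under infliximab, 1 was lowered with a pseudocount of 5 (0.463% of genes), 5 with the robust fit (1.05%) and 0 to 3 with a library left out (0.431% to 3.29%). The lowered members were Oas3, Oasl2 and Parp14 with weights (4.87%) and Oasl2, Gbp2 and Parp14 with edgeR (2.49%). The fit of all 9 libraries lowered Oas3 and Gbp2 (1.58%). The rule raised 1 member with the robust fit (1.49%), 1 with edgeR (1.82%) and 0 to 1 with a library left out (1.07% to 2.59%). Against WT, infliximab-treated SFs had 3 raised with a pseudocount of 5 (2.18%), 3 with the mean minimum (4.42%), 10 with weights (4.67%), 8 with the robust fit (4.52%) and 3 to 8 with a library left out (3.46% to 4.93%), and 2, 1, 4 and 3 passed adjustment with the mean minimum, weights, the robust fit and edgeR (3.62%, 1.34%, 4.19% and 4.67% of all genes). Replicate numbers were not taken to pair the samples. Correlations of same-numbered deviations ran from -0.15 to 0.35, and under infliximab all were positive (0.07 to 0.27). Those of different numbers ran from -0.49 to 0.24, and under infliximab from -0.26 to 0.13. With a replicate block 5 members were raised in hTNFtg versus WT (3.00% of all genes), and Ifit1, Oas3 and Gbp2 lost their calls. Under infliximab the block gave 3 lowered members, Oas3, Oasl2 and Rsad2, of which 1 was called without it (0.809% of all genes). For infliximab-treated versus WT it gave 3 raised members, Oas1a, Isg15 and Gbp5 (3.43% of all genes).

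Of 752 outcomes for named members, 633 kept direction and call, 65 lost and 39 gained a call, and 15 changed sign. Under infliximab, Bst2 turned from -0.0066 (SE 0.58) to 0.0019 with median ratios and 0.042 with quantile normalization. Isg15 turned from 0.49 to -0.093 with weights. The other sign changes came with a library left out, over which the log2 fold change under infliximab ran from -0.92 (without hTNFtg replicate 1) to 0.59 (without hTNFtg replicate 3) for Bst2, also at 0.32 and 0.17 without hTNFtg replicate 2 and infliximab replicate 3. It ran from -0.077 (without hTNFtg replicate 1) to 0.85 for Isg15, from -0.18 (without hTNFtg replicate 1) to 0.36 for Irf1, at -0.0094 without infliximab replicate 3, and from -0.24 (without hTNFtg replicate 3) to 0.73 for Ifitm3. In hTNFtg versus WT it ran from -0.017 (without WT replicate 2) to 1.56 for Irgm1. For infliximab-treated versus WT it ran from -0.50 (without infliximab replicate 2) to 0.66 for Oas3, at -0.39 without WT replicate 1, from -0.10 (without WT replicate 1) to 0.86 for Rtp4 and from -0.13 (without WT replicate 2) to 0.58 for Parp14. A count of 0 in hTNFtg replicate 1 allows up to 18.7 normalized counts, against 1.6 to 3.31 elsewhere, so changes of the members below 10 were not resolved there.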
